A study of Rattus norvegicus with 6 samples.

Results

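The miR-181 family was measured in rat hearts with and without chronic experimental colitis. Its members were every probe on the array whose name begins with rno-miR-181a, rno-miR-181b, rno-miR-181c or rno-miR-181d, whatever the arm or gene copy, which gave 10 probes of the 761 for rat miRNAs. Of these, 4 are 5p arms and 6 are 3p arms, the strands cut from the left and the right side of the precursor hairpin. Heart RNA came from 6 adult male Sprague Dawley rats, with 1 array per rat. The 3 DSS rats (animals 13, 14 and 16) had drunk 3% dextran sodium sulfate (DSS), which inflames the colon, for 5 days in each of 4 cycles. The cycles were separated by 9 days on plain water and spanned 8 weeks. The 3 control rats (animals 9, 10 and 11) received no DSS. The comparison asks how this colitis alters the miRNAs of the heart. Nothing in the labels ties 2 arrays to 1 rat, so the spread within a group is that between rats and arrays together.

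A miRNA is a short RNA that guides the silencing complex to messenger RNAs, mainly through its seed, the stretch of bases just behind its 5′ end. The 5p arms of the miR-181 family share 1 seed and so have overlapping sets of predicted targets, and they are the arms that usually enter the complex. miR-181a and miR-181b are known for tuning the sensitivity of developing T cells, and miR-181b also for dampening NF-κB signaling in endothelium. miR-181c is encoded in the nuclear genome but is found in the mitochondria of heart muscle, where it lowers a subunit of cytochrome c oxidase that the mitochondrial genome encodes. miR-181d is made beside miR-181c from the same short stretch of the genome.

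The sequences of the 4 mature 5p arms are shown because the results turn on how little they differ. They are the targets given for the probes, and they were identical to mature entries of RefSeq. Capitals mark the seed, bases 2 to 8 from the 5′ end.

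rno-miR-181a-5p: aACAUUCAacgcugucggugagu
rno-miR-181c-5p: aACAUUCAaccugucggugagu
rno-miR-181b-5p: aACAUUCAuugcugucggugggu
rno-miR-181d-5p: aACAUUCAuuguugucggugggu

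All 4 had the seed ACAUUCA, which no other probe of the 761 had. Counting from 1 at the 5′ end, miR-181d-5p differed from miR-181b-5p by C12U alone. miR-181b-5p differed from miR-181a-5p by A9U, C10U and A21G. miR-181c-5p has 22 bases and miR-181a-5p has 23, and their edit distance, the fewest single-base changes that turn one into the other, was 1. By sequence the arms thus form the pairs a with c and b with d, while across the pairs the edit distance ran from 3 to 5. The nearest probe outside the family was 7 or 8 changes away from each 5p arm. The array reads these RNAs by hybridization, and how much of a sister's RNA each probe takes up was not tested.

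The genes pair differently. RefSeq places 6 miR-181 hairpin genes in 3 clusters of the rat genome (GRCr8), all on the + strand. Mir181a-1 and Mir181b1 lie on chromosome 13, with the mature miR-181a-5p at chr13:52037081-52037103 and miR-181b-5p at chr13:52037263-52037285, 182 bases from start to start. Both hairpins overlap a long non-coding RNA. The nearest protein-coding gene is Ptprc, which encodes the leukocyte antigen CD45 and lies 110551 bases from Mir181a-1 and 110380 from Mir181b1. The same 2 mature sequences recur on chromosome 3 from Mir181a2 and Mir181b2, at chr3:43025601-43025623 and chr3:43026680-43026702, where both hairpins overlap Nr6a1, a nuclear receptor gene, and another long non-coding RNA. The arrays cannot say which copy a mature miR-181a-5p or miR-181b-5p came from. Mir181c and Mir181d lie on chromosome 19, with miR-181c-5p at chr19:40888314-40888335 and miR-181d-5p at chr19:40888484-40888506, 170 bases apart, and their nearest protein-coding gene is Nanos3.

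The hairpins of Mir181c (chr19:40888291-40888396) and Mir181d (chr19:40888474-40888556) are shown because their 5p arms, neighbors in the genome, changed by unequal amounts on the same arrays. Capitals mark the 5p arm and then the 3p arm.

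Mir181c: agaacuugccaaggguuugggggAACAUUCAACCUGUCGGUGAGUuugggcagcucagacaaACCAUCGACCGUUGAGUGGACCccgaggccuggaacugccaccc
Mir181d: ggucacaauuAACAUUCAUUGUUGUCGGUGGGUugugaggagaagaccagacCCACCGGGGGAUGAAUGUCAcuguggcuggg

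The 3p arms had more varied seeds. That of miR-181a-1-3p was shared with miR-181c-3p, that of miR-181b-2-3p with miR-653-3p, which is no member, and the other 3p seeds were each found on 1 probe. The 3p arm that was detected in the hearts is shown here with its seed in capitals.

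rno-miR-181a-2-3p: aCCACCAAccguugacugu

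Detection on an array required 2 or more of a probe's 4 spots to exceed the background by over 3 times the SD of the empty spots, with a spot CV below 0.5. Of all miRNA probes, 37.1% were detected on at least 3 arrays, which left 282 for testing, and 23.3% were detected on all 6. Each array detected between 223 and 365 miRNAs. The tests were wide in scope, as limma called 49.3% of the 282 at an adjusted p under 0.05, with 20.9% higher and 28.4% lower in DSS hearts. The probes for spike-in control RNA were 0.95 lower in DSS hearts on the log2 scale (2-sided exact permutation test, p = 0.1), and the 5S rRNA probes 0.42 lower (p = 0.1, the same test). With 3 arrays per group the smallest p that an exact permutation test can give is 0.1, and having so few arrays limits how precise each value is.

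Of the 10 miR-181 probes, 5 were detected, each on all 6 arrays, and these were tested. They were the 4 arms of the 5p side and miR-181a-2-3p. All 4 spots were above the limit in every one of the 30 combinations of a detected probe and an array. The spread of the 4 spots of a probe, as a CV of the brightness above background, ran from 1.11 to 19.3% with a median of 9.27%. The plot of single spots shows these values before any normalization.

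**Figure D1:**
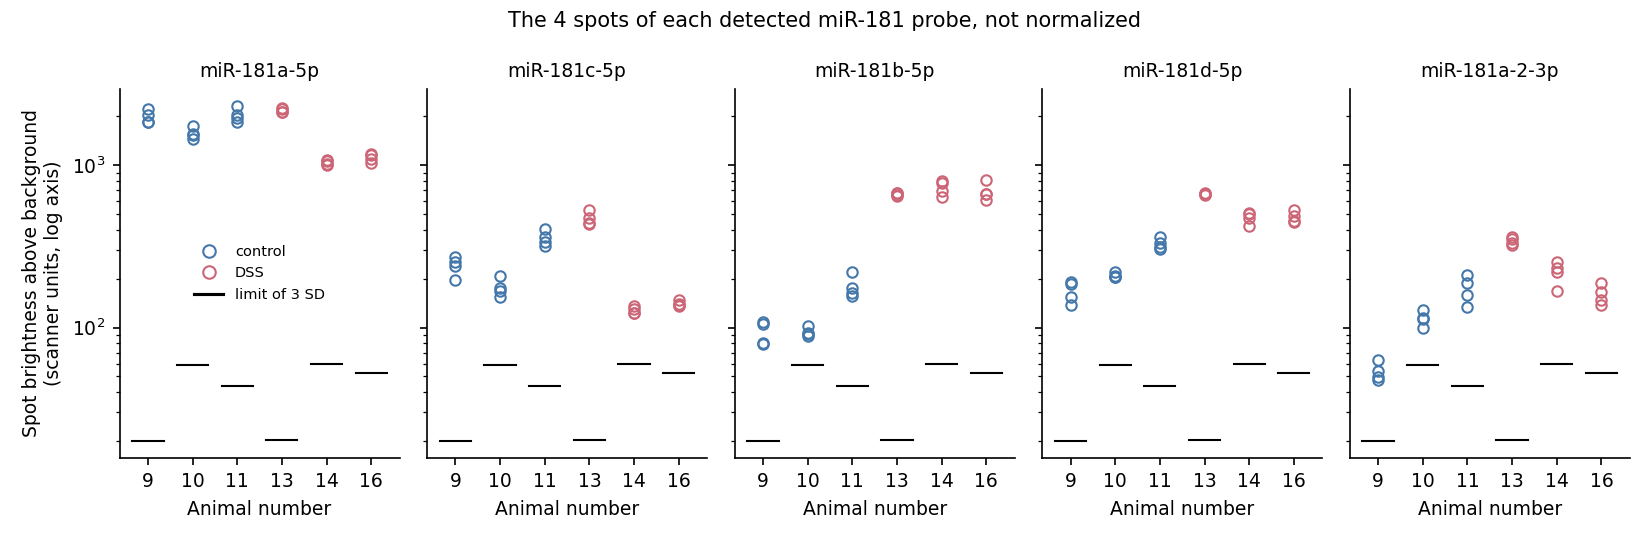
Brightness above background of each of the 4 spots of the detected miR-181 probes (scanner units, log axis, not normalized) against animal number, with controls in blue, DSS in red and a short line at the limit of 3 SD on each array. All 120 spots lie above their limit, and for miR-181b-5p the spots of DSS animals 13, 14 and 16 lie above those of every control.

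miR-181b-5p and miR-181d-5p rose in DSS hearts, and the other 3 detected members did not pass the test. Thus 2 of 5 were called, against 49.3% of all miRNAs tested, and 2 of 5 were called as higher, against 20.9% of all tested. Both members called were higher, as were 42.4% of all miRNAs called. A share of 2 in 5 called is near the 49.3%, and 2 calls are too few to read a direction from. The number of calls therefore sets nothing apart in this family. The groups did not overlap for 3 of the 5 members, against 66.3% of all miRNAs tested. The members' log2 changes ran from -0.61 to 1.71, where the median over all 282 was -0.06 and the median size of change was 0.72. In bulk tissue, fewer cells of a type and less of an RNA per cell cannot be told apart.

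miR-181b-5p showed the largest change in the family. Its normalized log2 signal was 7.71, 7.63 and 7.68 in control animals 9, 10 and 11, and 8.83, 9.67 and 9.64 in DSS animals 13, 14 and 16. Every DSS heart was above every control, the controls lay close together, and DSS animal 13 was the lowest of its group. The mean went from 7.68 ± 0.04 (SD, n = 3) to 9.38 ± 0.47 (SD, n = 3). This was a log2 change of 1.71 (SE 0.26, 95% confidence interval 1.08 to 2.33), or 3.26-fold on this scale, with an adjusted p = 0.0151 in limma. It was the 20th highest change of 282, and 92.9% of the miRNAs tested had a smaller one.

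The rise was visible without normalization. Brightness above background was 93.0, 91.7 and 170 in controls 9, 10 and 11, and 664, 734 and 663 in DSS animals 13, 14 and 16. On this raw scale DSS animal 13 was level with the other DSS hearts. In the deposited table of processed values, the same arrays read 165, 113 and 155 in controls and 360, 616 and 703 in DSS hearts, again without overlap. The adjusted p without DSS animal 16 was 0.0593, with a log2 change of 1.54, and limma then called 0 of all miRNAs, with 124 at an unadjusted p under 0.05. With all 6 arrays the call was also lost under the methods' t-test (adjusted p = 0.0608), and the direction was kept.

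miR-181d-5p, which differs from miR-181b-5p at 1 base, also rose, by less. Its normalized log2 signal was 8.24, 8.38 and 8.36 in controls 9, 10 and 11, and 8.83, 9.20 and 9.20 in DSS animals 13, 14 and 16. Every DSS heart was again above every control, and animal 13 was again the lowest DSS heart. The mean went from 8.33 ± 0.08 to 9.08 ± 0.22 (SD, n = 3 each), a log2 change of 0.75 (SE 0.18, 95% confidence interval 0.31 to 1.18), or 1.68-fold, with an adjusted p = 0.0197 in limma.

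Before normalization its brightness above background was 170, 207 and 324 in controls and 669, 486 and 469 in DSS hearts, which did not overlap. The processed values were 302, 261 and 277 in controls and 371, 405 and 495 in DSS hearts, which did not overlap either. The direction was the same on all 3 scales, with animal 13 the brightest DSS heart before normalization and the dimmest after it. The call was lost without control 9 (log2 change 0.77, adjusted p = 0.0534 in limma), without DSS animal 14 (0.74, adjusted p = 0.0655) and without DSS animal 16 (0.67, adjusted p = 0.0774). With all 6 arrays it was lost on the processed values (0.54, adjusted p = 0.0753 in limma), with scaling to the 75th percentile of probes detected on all arrays (0.86, adjusted p = 0.0708) and under the methods' t-test (adjusted p = 0.0608).

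**Figure D2:**
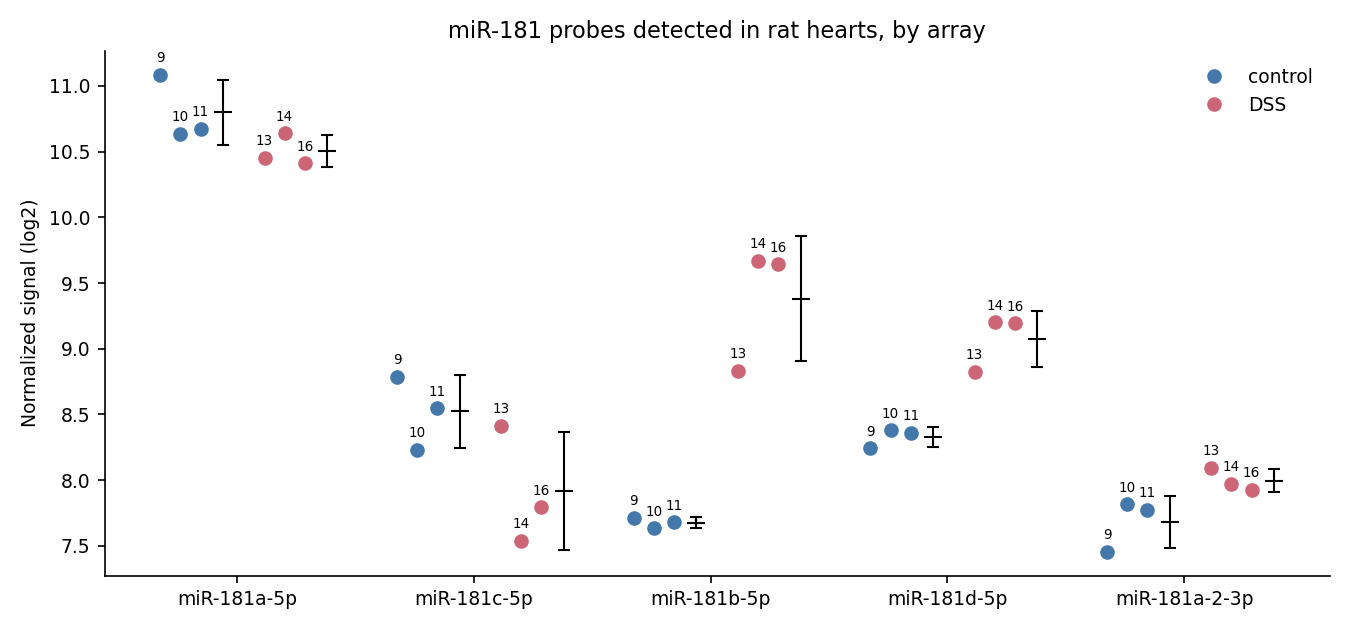
Normalized log2 signal of each detected miR-181 probe on each array (points, numbered by animal), with controls in blue, DSS in red, and the mean and SD of the 3 arrays of a group beside them in black. The DSS points of miR-181b-5p and miR-181d-5p lie above all their control points, and those of miR-181a-5p and miR-181c-5p overlap the controls. Heights are comparable within a probe, not between probes.

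miR-181a-5p, the sister that shares a cluster with miR-181b-5p, did not rise with it. Its normalized log2 signal was 11.09, 10.64 and 10.67 in controls 9, 10 and 11, and 10.45, 10.64 and 10.41 in DSS animals 13, 14 and 16. DSS animal 14 lay just above the lowest control, so the groups overlapped at their edge. The mean was 10.80 ± 0.25 in controls and 10.50 ± 0.12 in DSS hearts (SD, n = 3 each), and the log2 difference of -0.30 (SE 0.20, 95% confidence interval -0.76 to 0.17) had an adjusted p = 0.236 in limma.

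On the unnormalized scale miR-181a-5p read 1948, 1541 and 1996 in controls, and 2178, 1039 and 1125 in DSS hearts, where animal 13 was the brightest of all. In the processed table it read 2433, 1731 and 1678 in controls, and 1407, 1169 and 1414 in DSS hearts. The groups overlapped on the first of these scales and not on the second. Scaling the arrays to the spike-in probes turned the log2 difference to 0.53 (adjusted p = 0.176 in limma), and scaling to the 5S rRNA probes brought it to 0.00394 (adjusted p = 0.998). Other scales gave lower values that also did not pass the test. The difference was -0.57 under quantile normalization (adjusted p = 0.0604 in limma). It was -0.79 with scaling to the 75th percentile of all probes (adjusted p = 0.0509), and -0.61 with that of probes detected on all arrays (adjusted p = 0.183).

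miR-181c-5p, the member known from heart mitochondria, had the lowest value for the change in the family, and it did not pass the test. Its normalized log2 signal was 8.79, 8.23 and 8.55 in controls 9, 10 and 11, and 8.42, 7.54 and 7.79 in DSS animals 13, 14 and 16. DSS animals 14 and 16 lay below every control, and animal 13 lay within the control range. The mean was 8.52 ± 0.28 in controls and 7.92 ± 0.45 in DSS hearts (SD, n = 3 each). The log2 difference of -0.61 (SE 0.28, 95% confidence interval -1.28 to 0.06) had an adjusted p = 0.108 in limma.

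Brightness above background of miR-181c-5p was 247, 172 and 348 in controls and 457, 127 and 138 in DSS hearts, so before normalization the DSS group held both the brightest and the dimmest arrays. The processed values were 444, 235 and 318 in controls, and 270, 96 and 133 in DSS hearts. Single arrays moved this member's value in either direction. Without DSS animal 13 the log2 difference was -0.86 with an adjusted p = 0.0328 in limma, and without DSS animal 14 it was -0.34. The test was also passed with array weights on all 6 arrays (-0.64, adjusted p = 0.0325). Scaling to the spike-in probes turned the difference to 0.79 (adjusted p = 0.0602), and scaling to the 5S rRNA probes turned it to 0.26 (adjusted p = 0.627).

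miR-181a-2-3p was the one 3p arm detected. It is the passenger side of the Mir181a2 hairpin on chromosome 3, which also yields miR-181a-5p. Its normalized log2 signal was 7.45, 7.82 and 7.77 in controls 9, 10 and 11, and 8.09, 7.97 and 7.93 in DSS animals 13, 14 and 16. The DSS values lay above the control values with a narrow gap, and the mean was 7.68 ± 0.20 in controls and 8.00 ± 0.09 in DSS hearts (SD, n = 3 each). The log2 difference of 0.32 (SE 0.18, 95% confidence interval -0.11 to 0.74) had an adjusted p = 0.175 in limma.

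Before normalization the brightness of miR-181a-2-3p above background was 51.9, 114 and 173 in controls and 340, 226 and 158 in DSS hearts, and in the processed table it was 100, 144 and 160 against 196, 165 and 148. On both of these scales DSS animal 16 lay below control 11, so the groups overlapped. The test was passed under quantile normalization (log2 difference 0.59, adjusted p = 0.0485 in limma), with spike-in scaling (1.78, adjusted p = 0.000746) and with 5S rRNA scaling (1.25, adjusted p = 0.0208).

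The other 5 members, miR-181a-1-3p, miR-181b-1-3p, miR-181b-2-3p, miR-181c-3p and miR-181d-3p, were not detected on any array. In none of the 30 combinations of such a probe and an array did a single spot exceed the limit. Their normalized log2 signals lay between 5.83 and 6.44, near the lowest values that the background correction allows, and their processed values lay between 0 and 16. These are bounds and not levels, and no fold change was computed. The 3p arms made from the hairpins of both changed members, miR-181b-5p and miR-181d-5p, are all in this undetected group.

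**Figure D3:**
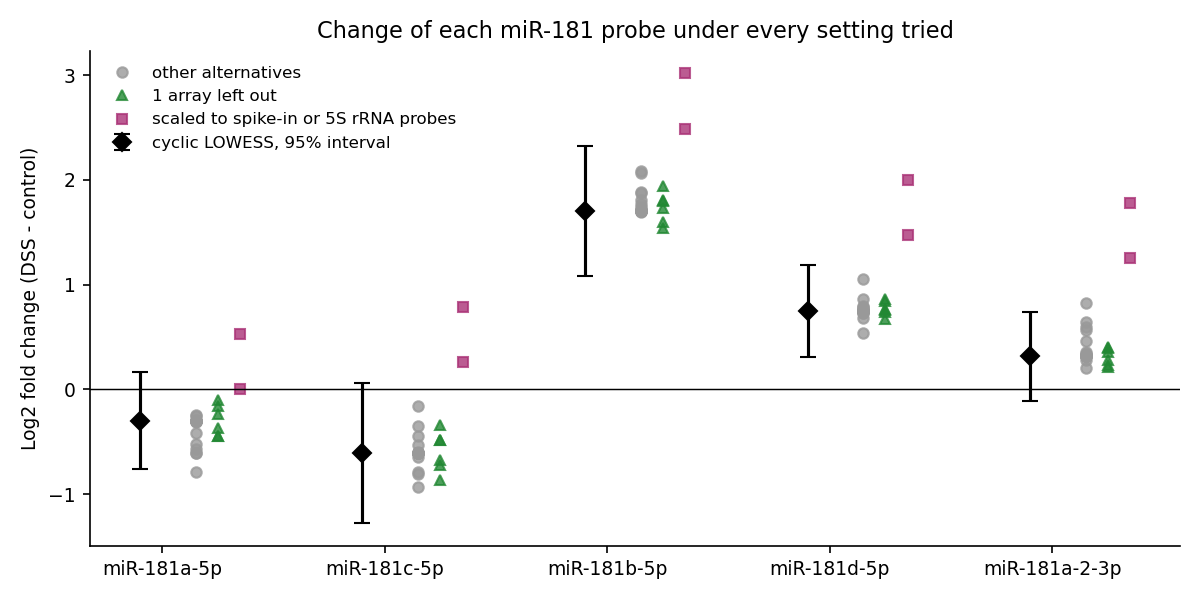
Log2 change (DSS minus control) of each detected miR-181 probe after cyclic LOWESS (black diamond, with the 95% confidence interval from limma), under the other alternatives (grey), with 1 array left out (green) and scaled to the spike-in or 5S rRNA probes (purple). miR-181b-5p and miR-181d-5p lie above 0 in all 25 alternatives, and the purple points of miR-181a-5p and miR-181c-5p lie at or above 0.

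The scale set the direction of miR-181a-5p and miR-181c-5p and which of them was the lowest. Scaling to the spike-in probes moved the median of all 282 miRNAs to 1.31, and scaling to the 5S rRNA probes moved it to 0.78. The log2 change of miR-181b-5p was then 3.02 and 2.49, and that of miR-181d-5p was 2.00 and 1.47. Such scalings shift all probes of an array alike, so the change relative to the median is by construction the same on both scales. It was 1.71 for miR-181b-5p, 0.69 for miR-181d-5p, 0.47 for miR-181a-2-3p, -0.52 for miR-181c-5p and -0.78 for miR-181a-5p. miR-181b-5p kept the highest change of the detected members in all 25 alternatives.

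A ratio of 2 probes on the same array does not depend on a scale common to the whole array, and asks whether near-identical members moved by unequal amounts. The ratios below were taken after cyclic LOWESS, whose correction varies with brightness, so the sizes of their changes depend in part on it. The size of such a ratio does not give the relative amounts of 2 RNAs, since probes differ in brightness, so only its change between groups is read. Among the 4 arms of the 5p side, 6 pairs were compared, and in 5 the 3 DSS ratios did not overlap the 3 control ratios. Each of these 5 had p = 0.1 in the 2-sided exact permutation test over the 20 arrangements of 6 arrays, the smallest it can give, and 0.12 after Benjamini-Hochberg adjustment over the 6 pairs. The 6 ratios come from 4 probes, so they are not separate observations. Among single miRNAs tested, 66.3% had groups that did not overlap, and no such share was computed over other pairs. The count of 5 in 6 therefore sets nothing apart in this family.

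The pairs that lie together in the genome came apart. The log2 ratio of miR-181a-5p over miR-181b-5p was 3.37, 3.00 and 2.99 in controls 9, 10 and 11, and 1.62, 0.97 and 0.77 in DSS animals 13, 14 and 16, so the group mean went from 3.12 to 1.12. The log2 ratio of miR-181c-5p over miR-181d-5p was 0.55, -0.15 and 0.19 in controls, and -0.41, -1.66 and -1.40 in DSS hearts, a change of -1.36. In both pairs the ratio moved in favor of the arm ending in gugggu over the arm ending in gugagu in every DSS heart.

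The pairs that are alike in sequence moved by less. The log2 ratio of miR-181b-5p over miR-181d-5p was -0.53, -0.75 and -0.68 in controls 9, 10 and 11, and 0.01, 0.47 and 0.45 in DSS animals 13, 14 and 16, a change of 0.96 without overlap. The log2 ratio of miR-181a-5p over miR-181c-5p was 2.30, 2.40 and 2.12 in controls, and 2.04, 3.10 and 2.62 in DSS hearts, a change of 0.31 with DSS hearts on both sides of the controls (exact permutation test, p = 0.5). This last change was -0.26 with no normalization between arrays, so its direction was not settled. The remaining pairs, each of a rising arm and one that did not rise, changed by -1.04 for miR-181a-5p over miR-181d-5p and by 2.31 for miR-181b-5p over miR-181c-5p.

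**Figure D4:**
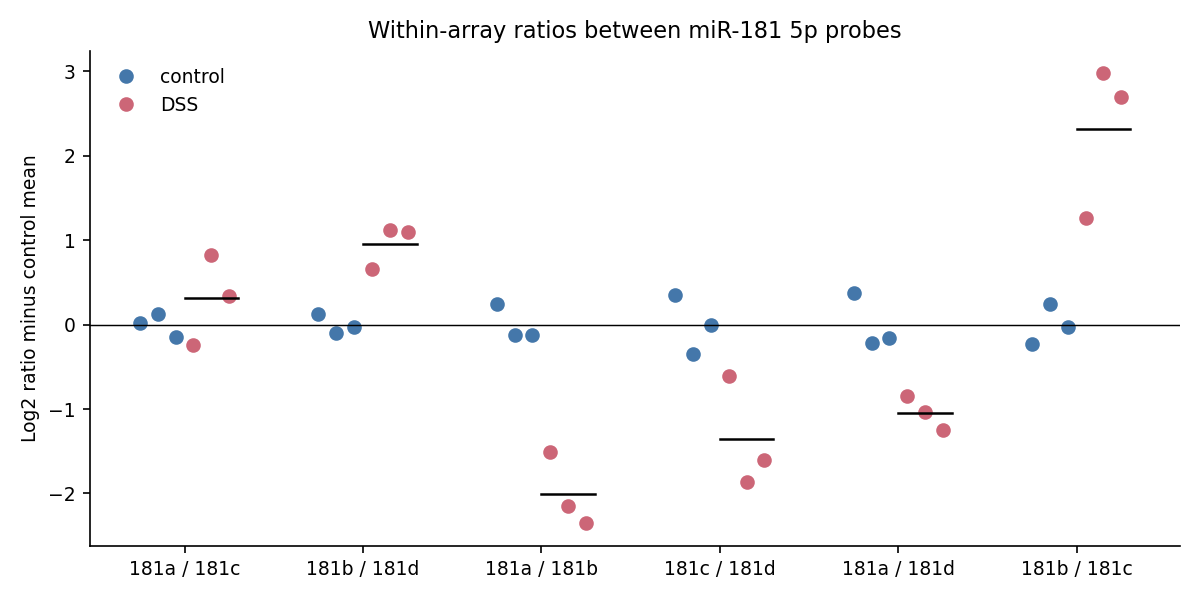
Log2 ratio of 2 miR-181 5p probes on the same array, relative to the control mean of that ratio, for controls 9, 10 and 11 (blue, in this order) and DSS animals 13, 14 and 16 (red, in this order), with the DSS mean as a bar. For the ratio of miR-181a-5p over miR-181c-5p the DSS points lie on both sides of the control points, and for the other 5 ratios they lie on 1 side.

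Base composition followed the same split of the 5p arms. G and U together made up 65.2% of miR-181b-5p and 69.6% of miR-181d-5p, and 52.2% or less of miR-181a-5p and miR-181c-5p. Over all 282 miRNAs the share of G and U had a Pearson r of 0.186 with the log2 change, and the share of G and C an r of 0.06. U alone made up 34.8% of miR-181b-5p, 39.1% of miR-181d-5p, 26.1% of miR-181a-5p and 27.3% of miR-181c-5p, and its r was -0.003. G alone made up 30.4%, 30.4%, 26.1% and 22.7% in the same order, and its r was 0.227. These are descriptions across probes that share arrays, and the part of composition in the miR-181 values was not tested. The G and C share was 47.8% in both miR-181a-5p and miR-181b-5p, 45.5% in miR-181c-5p and 43.5% in miR-181d-5p.

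The 4 arms of the 5p side had different companions among the other miRNAs. Likeness was taken as the root mean square difference over the 6 arrays between log2 signals, each set relative to its own control mean, against 277 miRNAs outside the family. The profiles most like miR-181b-5p were those of miR-423-5p (0.217 on the log2 scale), miR-34c-3p (0.263) and miR-485-3p (0.318), where the median of all was 1.30. Those most like miR-181d-5p were miR-3596a (0.109), miR-151-3p (0.148) and miR-346 (0.175), with a median of 0.813.

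Those most like miR-181a-5p were miR-339-3p (0.114), miR-125b-5p (0.127) and miR-143-3p (0.138), a miRNA abundant in smooth muscle, with a median of 0.618. Those most like miR-181c-5p were miR-335 (0.147), miR-872-3p (0.170) and miR-193a-3p (0.184), with a median of 0.669. Sisters were left out of this search, and each lay farther from an arm than that arm's nearest 3. Measured the same way, miR-181a-5p lay 0.387 from miR-181c-5p and 1.44 from miR-181b-5p, and miR-181d-5p lay 0.697 from miR-181b-5p and 1.05 from miR-181c-5p.

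**Figure D5:**
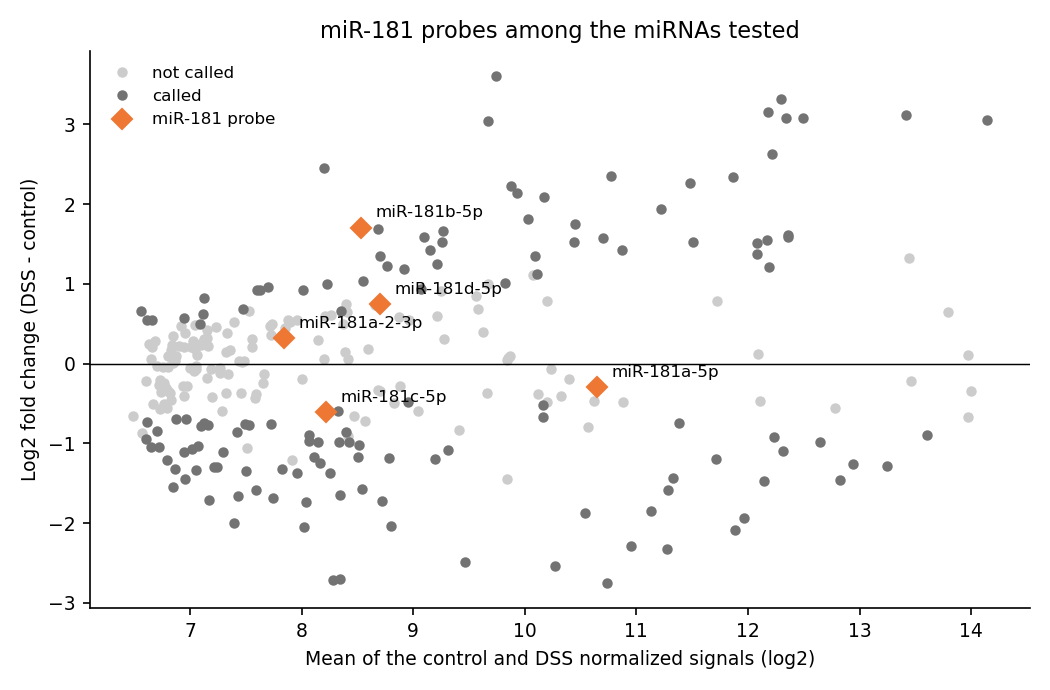
Log2 change (DSS minus control) against the mean of the control and DSS normalized log2 signals for the 282 miRNAs tested, in dark grey where limma called them and in light grey where it did not, with the 5 miR-181 probes as orange diamonds. miR-181b-5p at 1.71 lies toward the upper edge of the cloud, and the other members lie within its middle.

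Other miRNAs with a known role in heart mitochondria were set beside miR-181c-5p. Of 6 such miRNAs, all tested, 1 rose, 1 fell and 4 did not pass the test. Over all miRNAs tested, 20.9% were called higher and 28.4% lower, so these counts set nothing apart in the list. The median log2 change was 0.42 in the list against -0.06 over all miRNAs tested, a difference that was not tested. The 1 that rose was miR-1-3p, the main miRNA of striated muscle (log2 change 3.11, SE 0.59, adjusted p = 0.0151 in limma), and the 1 that fell was miR-499-5p, which lies in a myosin heavy chain gene (-2.09, SE 0.54, adjusted p = 0.0213). Set beside these, miR-181c-5p at -0.61 lay between them.

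Markers of the cells in a heart were read against the 20.9% of all miRNAs tested that were called higher and the 28.4% called lower. Of 6 leukocyte miRNAs, 4 were tested, and 3 rose while 1 fell. Of these 3, miR-155-5p was detected on 0 control arrays and 3 DSS arrays. It was tested only because of the group where it was high, so its rise should not be counted with the others. The summed signal of the 6 was 2923 to 5817 in controls and 10465 to 14766 in DSS hearts. The largest rise, and the brightest signal of the list in DSS hearts, was that of miR-150-5p, a miRNA of mature lymphocytes (log2 change 1.59, adjusted p = 0.0201 in limma), and the 1 that fell was miR-223-3p, a miRNA of myeloid cells (-1.35, adjusted p = 0.0299). The defining markers miR-142-3p and miR-142-5p were each detected on 1 array, a control.

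Of 4 endothelial miRNAs, none rose and 2 fell, and their summed signal went from 13087 to 21046 in controls to 5138 to 10831 in DSS hearts. Most of that sum was miR-126a-3p, with a mean log2 signal of 13.89 in controls and 12.61 in DSS hearts. All marker lists were read after cyclic LOWESS alone, and other scales were not tried for them. Muscle miRNAs marked the tissue as striated muscle, as 4 of 6 were detected on all arrays. Of these 4, 1 rose on the arrays (miR-1-3p), 1 fell and 2 did not pass the test. The summed signal of the list was 41256 to 64517 in controls and 38659 to 94532 in DSS hearts. The heart markers miR-208a-3p and miR-208b-3p were detected on 1 array and on none. The other arm of miR-208a, miR-208a-5p, was not in the list but was tested. Its mean log2 signal was 9.24 in controls and 9.92 in DSS hearts (adjusted p = 0.0910 in limma). Of 3 erythroid miRNAs 1 rose, 1 fell and 1 was not detected, and their sum was 2829 to 6069 in controls and 3803 to 5627 in DSS hearts. The liver marker was detected on 1 array, and of 2 brain markers 1 was on none and the other did not pass the test. The part of any of these cells in the rise of miR-181b-5p and miR-181d-5p was not tested.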

How the data were processed

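For 6 arrays (LC Sciences, rat miRNA, 1 color) the authors deposited scanner intensity values, linear and not normalized, with background included. A deposited table of processed intensity values had been background-subtracted and LOWESS-filtered by the authors. How that table combined repeated spots is not given in the sources used here. Each array had 3968 spots, 4 per miRNA probe.

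Groups followed the labels. The 4 spots of a probe were averaged as log2 values after normexp (offset 50), which shrinks the changes of dim probes. Arrays were then normalized by cyclic LOWESS (span 0.7, 3 iterations) on the 761 miRNA probes. For detection and plain brightness, the dimmest 25% of miRNA spots gave the background, as their median. The 282 miRNAs detected on 3 or more arrays were tested with limma 3.58.1 (lmFit, eBayes) in R 4.3.3, Benjamini-Hochberg adjusted over all of them, threshold 0.05. Adjusted p-values are from limma unless another test is named, and intervals are unadjusted. Processed values entered as log2(value + 32). Ratios were compared by exact permutation. Sequences and coordinates came from RefSeq (GRCr8), where 9 of 10 probe targets matched a mature entry. The chromosome 3 copy of miR-181b-5p was located within its hairpin. Python 3.11.15 and matplotlib 3.10.9 drew the figures. The steps were tested on simulated data.

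The members, lists, tests and alternatives were chosen with earlier results of these data known. Named miRNAs were all members, the 3 profiles nearest each tested 5p arm, and the extremes of a list. Outside that rule, miR-155-5p, miR-208a-5p, the untested muscle and leukocyte markers and miR-653-3p, which shares a member's seed, were named after their values were seen.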

Additional observations from a re-analysis of the deposited data

How the results depend on the processing

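Direction held for miR-181b-5p (log2 change 1.54 to 3.02) and miR-181d-5p (0.54 to 2.00) in all 25 alternatives. The call for miR-181b-5p was lost in 2 and that for miR-181d-5p in 6. Under the methods' t-test both had an adjusted p = 0.0608 (log2 changes 1.71 and 0.75), and 0 miR-181 probes and 0 of all miRNAs were called, with 2 and 155 at an unadjusted p under 0.05. Scaling to the 75th percentile of probes detected on all arrays gave miR-181d-5p 0.86 (adjusted p = 0.0708 in limma) and 1 miR-181 probe called, and the processed values gave it 0.54 and 1 probe called. Array weights gave miR-181c-5p -0.64 (adjusted p = 0.0325). For miR-181a-2-3p, quantile normalization gave 0.59, spike-in scaling 1.78 (adjusted p = 0.000746) and 5S rRNA scaling 1.25 (adjusted p = 0.0208). Spike-in and 5S rRNA scaling gave miR-181a-5p 0.53 and 0.00394, and miR-181c-5p 0.79 and 0.26. The lowest value of miR-181a-5p was -0.79 (adjusted p = 0.0509 in limma), with scaling to the 75th percentile of all probes. With spike-in and 5S rRNA scaling, 168 miRNAs were called higher and 10 lower, and 129 and 14, against 59 and 80. With no normalization between arrays 81 were higher and 38 lower, and the median of all was 0.36. The ratio of miR-181a-5p over miR-181c-5p changed by -0.26 with no normalization, both percentile scalings and both control-probe scalings, and by -0.13 under quantile normalization. The cause of these shifts was not tested. With no filter on dim probes, where more miRNAs are tested, 74 of all were called. miR-181b-5p was detected on 5 arrays at a limit of 5 SD and when 3 SD were counted from the median empty spot. With 1 array left out, log2 changes ran from 1.54 to 1.94 for miR-181b-5p, 0.67 to 0.87 for miR-181d-5p, -0.86 to -0.34 for miR-181c-5p, -0.44 to -0.10 for miR-181a-5p and 0.21 to 0.40 for miR-181a-2-3p, with 0 to 3 miR-181 probes and 0 to 140 miRNAs called. The count of all called was 82 without control 9, 90 without control 11, 66 without DSS animal 14 and 0 without DSS animal 16, where 124 had an unadjusted p under 0.05 in limma. The 5 other ratios kept their direction throughout. No block for slide or scan was fitted, since neither is named in the files. No paired analysis was possible because the groups share no replicate numbers.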
